A study of Oryza sativa Japonica Group with 9 samples.

Results

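The basic helix-loop-helix (bHLH) transcription factors of rice were followed through drought in seedlings with altered OsbZIP23, a basic leucine zipper factor of the response to the drought hormone abscisic acid (ABA). The members are the 145 of 55986 genes whose deposited description names a basic helix-loop-helix or bHLH protein. The wording is the DNA-binding superfamily or family label for 141 of them in 3 spellings (128, 10 and 3 genes), "ABA-inducible BHLH-type transcription factor" for 2, and "ILI1 binding bHLH 1" for 2. Some known rice bHLH genes carry other descriptions, so the 145 genes are the described part of the family and not all of it.

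bHLH proteins dimerise through their helix-loop-helix part and bind short E-box motifs in DNA through the basic part. Atypical members that lack a working basic part act by holding others in inactive dimers. In plants the family holds regulators of iron supply, of the jasmonate response, of light-dependent growth through partners of the phytochromes, of stomatal development and of pollen formation.

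RNA was sequenced from 6 groups of seedlings at the 4-leaf stage, 1 library each. They were an OsbZIP23 mutant (osbzip23), an OsbZIP23 overexpressor and wild-type ZH11 (Zhonghua 11, a japonica cultivar, the background of all plants), each under drought and under normal growth. Drought was held until every leaf was rolled, when the unstressed plants were taken too. Above-ground parts were harvested, and the labels do not say how many plants went into a library or which promoter drives the transgene. With 1 library a group, no genotype and condition had a replicate, so p-values measure only the spread between these 6 libraries, which includes any difference between genotypes in the drought response.

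Libraries held 9.48 to 13.5 M reads, and the members took 0.121% to 0.163% of them. OsbZIP23 itself stood at 158 CPM in the mutant, 455 CPM in the overexpressor and 478 CPM in ZH11 under drought, and at 11.8, 1319 and 32.3 CPM in the same 3 genotypes under normal growth. CPM are read numbers per 1 M reads, with library sizes corrected by TMM (trimmed mean of M-values). The mutant's library under drought therefore still held reads of the gene, and the overexpressor exceeded ZH11 under normal growth but not under drought. The 4 green leaf markers (3 Rubisco small subunit genes and 1 light-harvesting gene) summed to 187 to 886 CPM under drought, against 17660 to 25310 CPM under normal growth. The root marker Lsi2 had 0 reads in every library, Lsi1 stood between 3.63 and 9.90 CPM, and the shoot meristem marker OSH1 did not exceed 0.146 CPM. In whole shoots, fewer cells of a type and less RNA per cell cannot be told apart. The part of the loss of leaf transcripts in the results below was not tested.

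Of the 145 members, 69 had enough reads to be tested. Of the other 76, 20 had no read in any library after rounding and 46, these included, had under 5 reads over all 6 libraries together. The untested members reached at most a mean of 1.07 CPM, while the tested ones ran between 0.815 and 164 CPM with a median of 8.33 CPM.

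Drought changed the transcript level of 42 of the 69 tested members at an adjusted p under 0.05 (edgeR's quasi-likelihood test, Benjamini-Hochberg over all 21409 tested genes). That is 60.9% of them, against 53.6% of all tested genes. Of these, 22 rose (31.9%, against 26.1% of all tested genes) and 20 fell (29.0%, against 27.5%). All 3 shares lie near those of all genes. The median log2 fold change of the tested members was -0.37 and that of all tested genes -0.15. Scaling to total counts moved these medians to -0.77 and -0.55, and with it 17 members rose and 28 fell (18.8% and 34.2% of all genes).

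The 22 members that rose had a median log2 fold change of 1.75 (0.78 to 5.91), and the 20 that fell a median of -2.59 (-5.42 to -0.99). A change of at least 2-fold was found in 39 of the 42, and the share among all changed genes was not counted. The median size of the single-library log2 drought ratio was 1.95, 1.53 and 1.89 in the mutant, overexpressor and ZH11 for these 42. For all changed genes it was 1.96, 1.35 and 1.87. In 27 tested members all 3 drought libraries lay above all 3 normal libraries, against 31.0% of all tested genes. In 26 all drought libraries lay below, against 34.6% of all genes, and in the other 16 the conditions overlapped. Leaving out either library of a genotype takes that genotype out of the drought contrast. Both such fits of a genotype are therefore nearly the same drought test, here and below. Without the ZH11 drought library 21 members passed, where 22.3% of all genes did, against 53.6% with all libraries. Without the ZH11 normal library it was 24 members and 24.0% of all genes, so the loss of calls ran through all genes.

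**Figure D1:**
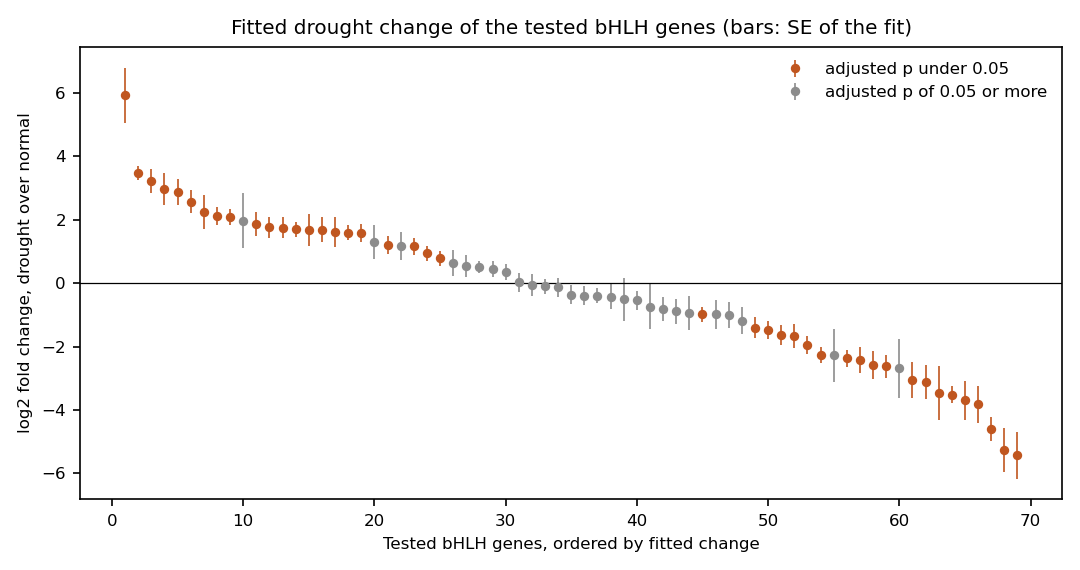
Log2 fold change of drought over normal growth for each of the 69 tested bHLH genes, ordered from the largest rise to the largest fall; points are the fitted values of 1 additive model over 6 libraries and bars their SE. The 42 orange genes passed an adjusted p of 0.05, and they lie on both sides of 0, between 5.91 and -5.42.

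Among the iron regulators, OsIRO3, a repressor of iron-deficiency genes in rice, had the largest rise of the well-expressed members. It reached 53.7 CPM in the mutant, 46.1 CPM in the overexpressor and 71.3 CPM in ZH11 under drought, against 5.02, 4.46 and 5.85 CPM in these genotypes under normal growth. Every drought library lay far above every normal one. The log2 fold change was 3.46 ± 0.23 (SE of the fit), with an adjusted p of 0.000459, the smallest among the members. Single-library ratios were alike in size, 10.7-fold in the mutant (95% interval 8.32 to 13.9), 10.3-fold in the overexpressor (7.79 to 14.0) and 12.2-fold in ZH11 (9.68 to 15.5). These exact intervals cover counting error only.

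The OsPRI proteins are activators of the iron-deficiency response that are marked for degradation by the iron-binding ubiquitin ligases OsHRZ1 and OsHRZ2. OsPRI2 fell, with 7.55 CPM in the mutant, 8.86 CPM in the overexpressor and 9.47 CPM in ZH11 under drought, against 43.2, 24.8 and 34.2 CPM under normal growth. The conditions did not overlap, and the log2 fold change was -1.94 ± 0.28 (adjusted p = 0.00296). OsPRI1 went the other way, with 147 CPM in the mutant, 83.1 CPM in the overexpressor and 119 CPM in ZH11 under drought, against 67.8, 65.4 and 65.4 CPM under normal growth. Its log2 fold change of 0.78 ± 0.25 passed narrowly (adjusted p = 0.0406). The call was lost under 4 of the other settings, among them total count scaling (0.38, adjusted p = 0.216), and without a mutant or a ZH11 library (0.60 to 0.74, adjusted p of 0.1599 to 0.279). OsPRI3 had a log2 fold change of 0.36 ± 0.25 and did not pass (adjusted p = 0.258).

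OsIRO2, which activates genes of iron uptake and phytosiderophore synthesis, was barely present, at 0.979, 0.295 and 0.768 CPM in the mutant, overexpressor and ZH11 under drought and 1.22, 0.743 and 0.219 CPM under normal growth. It was not tested. Of the 5 iron regulators among the members, 4 were tested, of which 2 rose and 1 fell. Both further iron regulators outside the member list, OsbHLH156 and OsbHLH133, had 0 reads after rounding.

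Genes of iron transport and storage moved in both directions. Of 13 listed, 9 were tested, 4 rose and 3 fell. The ferritin genes OsFER1 and OsFER2, which code for the iron storage protein, rose with log2 fold changes of 3.94 ± 0.37 (adjusted p = 0.000869) and 3.59 ± 0.37 (adjusted p = 0.00105). They are close copies of each other, so reads may be split between them. OsYSL2, a transporter of iron bound to nicotianamine, rose by 3.29 ± 0.47 on the log2 scale (adjusted p = 0.00277). OsDMAS1, which makes the phytosiderophore deoxymugineic acid, fell (-1.34 ± 0.26, adjusted p = 0.00713). OsHRZ1 (0.41 ± 0.23) and OsHRZ2 (-0.52 ± 0.31) did not pass, with adjusted p of 0.165 and 0.194.

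Among the jasmonate-related members, OsbHLH148, a jasmonate-responsive factor that binds JAZ repressors and acts in drought tolerance of rice, was the most abundant member by FPKM under drought in the mutant and ZH11. It had 469 CPM in the mutant, 80.1 CPM in the overexpressor and 291 CPM in ZH11 under drought, against 46.9, 47.2 and 49.4 CPM under normal growth. The normal libraries lay close together, and the drought libraries stood apart from each other with the overexpressor lowest. The fitted log2 fold change was 2.24 ± 0.54 (adjusted p = 0.0156). Ratios of single libraries were 10.0-fold in the mutant (95% interval 9.21 to 10.9), 1.70-fold in the overexpressor (1.52 to 1.89) and 5.89-fold in ZH11 (5.43 to 6.41). Without either ZH11 library the change was 2.06 or 2.02 and no longer passed (adjusted p of 0.0875 and 0.0853).

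OsbHLH062, which binds the JAZ protein OsJAZ9 and acts in salt tolerance, rose as well. Its drought values were 13.8 CPM in the mutant, 26.5 CPM in the overexpressor and 20.9 CPM in ZH11, against 4.07, 4.46 and 5.27 CPM under normal growth. Here the overexpressor was the highest of the drought libraries. The log2 fold change was 2.11 ± 0.28 (adjusted p = 0.00228), and the call held under every alternative that fitted the gene.

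OsMYC2, the central activator of jasmonate responses, had 98.1 CPM in the mutant, 52.5 CPM in the overexpressor and 83.2 CPM in ZH11 under drought, against 88.9, 113 and 97.4 CPM under normal growth. The conditions overlapped, and the log2 fold change of -0.40 ± 0.30 did not pass (adjusted p = 0.303). RERJ1, a jasmonate-induced factor of wounding and drought, had 17.2, 9.55 and 22.9 CPM in the mutant, overexpressor and ZH11 under drought, against 22.1, 47.7 and 29.4 CPM under normal growth. Its log2 fold change was -0.99 ± 0.44 (adjusted p = 0.105). Total count scaling and limma on log2(FPKM + 1) gave calls for both, at -0.79 and -0.76 for OsMYC2 and at -1.40 and -1.33 for RERJ1. RERJ1 also passed with no filter on low counts (-1.03). Of these 4 jasmonate-related members, 2 rose and 0 fell.

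The JAZ repressors and COI receptors, which restrain and release such factors, were all tested. Of these 13 genes 5 rose and 1 fell. OsJAZ11 had 839 CPM in the mutant, 103 CPM in the overexpressor and 389 CPM in ZH11 under drought, against 33.6, 5.61 and 6.07 CPM under normal growth, a log2 fold change of 4.94 ± 0.46 (adjusted p = 0.000852). OsJAZ12 (3.51 ± 0.52) and OsJAZ13 (3.46 ± 0.42) rose, with adjusted p of 0.00319 and 0.00175, and OsJAZ7 fell (-1.90 ± 0.26, adjusted p = 0.00242). None of the 3 COI genes passed.

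The 2 genes described as ABA-inducible bHLH factors differed. LOC_Os01g13460 rose, with 168, 124 and 182 CPM in the mutant, overexpressor and ZH11 under drought, against 36.2, 39.2 and 36.0 CPM under normal growth. The log2 fold change was 2.07 ± 0.25 (adjusted p = 0.00176), and the conditions stood well apart. LOC_Os01g50940 had 9.79 CPM in the mutant, 1.77 CPM in the overexpressor and 3.24 CPM in ZH11 under drought, against 7.46, 8.17 and 7.46 CPM under normal growth. Only the mutant's drought library lay above the normal libraries. The fitted change of -0.95 ± 0.53 did not pass (adjusted p = 0.174), while without the mutant's drought or normal library it was -1.62 or -1.68 and passed (adjusted p of 0.0177 and 0.0190). It also passed under total count scaling (-1.37) and in limma on log2(FPKM + 1) (-0.94).

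Among the atypical proteins, IBH1, an inhibitor of cell elongation that is held in check by ILI1, rose. It had 15.4 CPM in the mutant, 10.4 CPM in the overexpressor and 14.8 CPM in ZH11 under drought, against 5.42, 5.78 and 6.29 CPM under normal growth. The log2 fold change was 1.20 ± 0.27 (adjusted p = 0.0131). The call was lost in limma on log2(FPKM + 1) (0.49, adjusted p = 0.0934) and under total count scaling (0.80, adjusted p = 0.0761). Without the ZH11 drought or normal library the change was much the same, 1.19 or 1.16, but did not pass (adjusted p of 0.134 and 0.127). The other 4 listed atypical members were not tested. One of them, BU1, a brassinosteroid-induced promoter of leaf bending, had 0 reads in each drought library, against 0.542, 0.165 and 0.732 CPM in the mutant, overexpressor and ZH11 under normal growth.

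Regulators of development were mostly at or near 0 in these shoots. Of the 6 stomatal and ICE factors, only OsFAMA, which acts in guard cell formation, and OsICE2, a partner of the stomatal factors, were tested. OsFAMA had 5.31, 3.64 and 3.41 CPM in the mutant, overexpressor and ZH11 under drought, against 2.98, 3.22 and 2.19 CPM under normal growth, and its log2 fold change of 0.55 ± 0.34 did not pass (adjusted p = 0.217). OsICE2 had a change of -0.90 ± 0.38 (adjusted p = 0.0918). It passed without the mutant's drought or normal library (-1.37 and -1.42, adjusted p of 0.00939 and 0.00848) and under total count scaling (-1.29), with no filter (-0.93) and in limma on log2(FPKM + 1) (-1.15). The 4 tapetum regulators of the anther (UDT1, TDR, EAT1 and TIP2) summed to between 0.171 and 1.39 CPM in a library. LAX1, which starts side shoots, and Rc, which colours the grain's seed coat, had 0 reads, as did the stomatal factors OsSPCH1 and OsSPCH2.

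OsbHLH120, a candidate gene for root thickness, was set apart by 1 library. It had 26.6 CPM in the mutant, 4.53 CPM in the overexpressor and 4.01 CPM in ZH11 under drought, against 1.02, 2.56 and 2.41 CPM under normal growth. The single-library drought ratio was 26.1-fold in the mutant (95% interval 15.4 to 47.6), 1.77-fold in the overexpressor (1.10 to 2.89) and 1.66-fold in ZH11 (1.04 to 2.68). The fitted change of 1.97 ± 0.86 did not pass (adjusted p = 0.0988). In edgeR it passed with no filter on low counts (1.935, adjusted p = 0.00341) and with no genotype term (2.53, adjusted p = 0.0361). DESeq2 called it at 2.01 (adjusted p = 0.0123), as did edgeR without the overexpressor's drought or normal library (2.73 and 2.67, adjusted p of 0.00465 and 0.0198). Without the mutant's drought or normal library it was 0.82 or 0.76 and did not pass (adjusted p of 0.165 and 0.136).

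The phytochrome-interacting factor-like (PIL) genes are bHLH genes whose descriptions name no bHLH, so they lie outside the 145. Of 5 tested, 0 rose and 3 fell. OsPIL13, a promoter of stem elongation, had 1.68 CPM in the mutant, 1.57 CPM in the overexpressor and 1.19 CPM in ZH11 under drought, against 27.3, 54.0 and 38.5 CPM under normal growth. That is a log2 fold change of -4.73 ± 0.33 (adjusted p = 0.00048). OsPIL16 fell by 2.03 (SE 0.45, adjusted p = 0.0119) and OsPIL12 by 0.89 (SE 0.26, adjusted p = 0.0306) on the log2 scale. The 3 phytochrome genes all fell, by 0.69 (PHYA), 1.13 (PHYB) and 0.81 (PHYC) on that scale, with adjusted p of 0.0351, 0.0209 and 0.0197. Beyond these, OsPTF1, a factor of phosphate-starvation tolerance, rose by 2.003 ± 0.30 (adjusted p = 0.00319) and OsbHLH079, a factor of leaf angle, by 2.18 ± 0.32 (adjusted p = 0.00301).

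**Figure D2:**
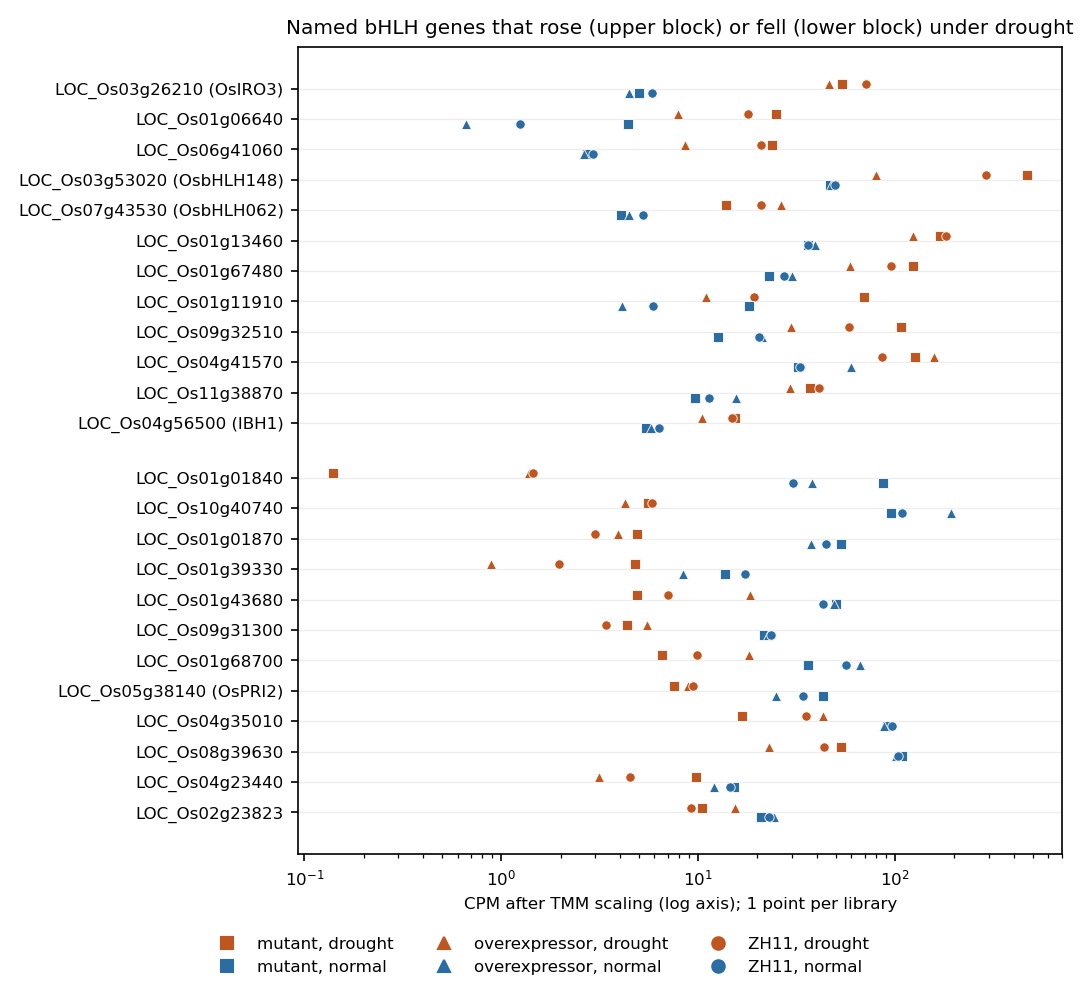
CPM after TMM scaling on a log axis for the 12 largest rises (upper block) and the 12 largest falls (lower block) among bHLH genes with a mean of at least 5 CPM; each point is 1 library, orange for drought and blue for normal growth, with squares for the mutant, triangles for the overexpressor and circles for ZH11. In OsIRO3 the drought points lie between 46.1 and 71.3 CPM and the normal points between 4.46 and 5.85 CPM, while the drought points of OsbHLH148 spread between 80.1 and 469 CPM.

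The remaining large rises belong to members with no role list here. LOC_Os01g06640 had 24.7, 7.87 and 17.8 CPM in the mutant, overexpressor and ZH11 under drought, against 4.41, 0.66 and 1.24 CPM under normal growth (log2 fold change 3.22 ± 0.38, adjusted p = 0.00159). LOC_Os06g41060 had 23.8, 8.56 and 20.8 CPM in the mutant, overexpressor and ZH11 under drought, against 2.71, 2.64 and 2.93 CPM under normal growth (2.57 ± 0.37, adjusted p = 0.00286). In both, the overexpressor had the lowest drought value. LOC_Os04g41570 differed in this, with 127 CPM in the mutant, 157 CPM in the overexpressor and 86.3 CPM in ZH11 under drought, against 32.3, 59.9 and 32.8 CPM under normal growth (1.58 ± 0.24, adjusted p = 0.00335). The overexpressor was the highest library in each condition.

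LOC_Os01g67480, LOC_Os01g11910, LOC_Os09g32510 and LOC_Os11g38870 rose by 1.74, 1.69, 1.68 and 1.57 on the log2 scale. Their adjusted p was 0.00673, 0.00266, 0.0330 and 0.00630. Without the ZH11 drought library, LOC_Os01g67480 (1.72, adjusted p = 0.0537), LOC_Os09g32510 (1.80, adjusted p = 0.109) and LOC_Os11g38870 (1.44, adjusted p = 0.0707) did not pass. Without the ZH11 normal library the same 3 had adjusted p of 0.0509, 0.101 and 0.0638. LOC_Os09g32510 also missed without the mutant's normal library (0.99, adjusted p = 0.0516), and LOC_Os01g11910 in a fit with no genotype term (1.81, adjusted p = 0.0964).

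The largest fitted rise of all, 5.91 ± 0.88 for LOC_Os07g48900 (adjusted p = 0.00312), rests on few reads: 9 in the mutant, 18 in the overexpressor and 42 in ZH11 under drought, against 0, 1 and 0 under normal growth. Against a floor of 3 reads, that is at least 6.19-fold higher in the mutant and at least 16.3-fold higher in ZH11. The gene lies below the level set for naming and was picked here after its values were seen.

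Among the well-expressed members the largest falls were greater in size than the largest rises. LOC_Os01g01840 had 0.140 CPM in the mutant, 1.38 CPM in the overexpressor and 1.45 CPM in ZH11 under drought, against 86.4, 38.0 and 30.2 CPM under normal growth. In reads, the mutant had 1 under drought, against 1274 under normal growth. The log2 fold change was -5.42 ± 0.74 (adjusted p = 0.00242). LOC_Os10g40740 had 5.59, 4.23 and 5.80 CPM in the mutant, overexpressor and ZH11 under drought, against 95, 193 and 108 CPM under normal growth (-4.60 ± 0.38, adjusted p = 0.000686). The overexpressor's normal library was the highest and its drought library the lowest, so its ratio of 0.0219 (95% interval 0.0158 to 0.0296) was the lowest of the 3 genotypes.

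LOC_Os01g01870 fell next (-3.52 ± 0.26, adjusted p = 0.000533), with 4.89, 3.94 and 2.98 CPM in the mutant, overexpressor and ZH11 under drought, against 53.0, 37.2 and 44.5 CPM under normal growth. Between it and LOC_Os01g01840 lie 2 loci on chromosome 1 by locus order. LOC_Os01g39330 (-2.57), LOC_Os01g43680 (-2.44), LOC_Os09g31300 (-2.37) and LOC_Os01g68700 (-2.27) fell to between 0.886 and 18.3 CPM under drought, against 8.33 to 66.2 CPM under normal growth. Their adjusted p ran from 0.00127 to 0.00497, and all 4 held under every alternative that fitted them. LOC_Os04g35010 (-1.63), LOC_Os08g39630 (-1.48), LOC_Os04g23440 (-1.40) and LOC_Os02g23823 (-0.99) fell less. All 4 missed without the ZH11 drought library, at changes of -1.71, -1.58, -1.25 and -0.81 and adjusted p of 0.0547, 0.0591, 0.139 and 0.210. LOC_Os04g23440 and LOC_Os02g23823 also missed without the ZH11 normal library, at -1.29 and -0.85 with adjusted p of 0.133 and 0.192.

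Neighbouring members were counted by locus order. With at most 10 loci between them, 25 members formed 10 runs. Only 8 of these were tested, of which 6 fell and 1 rose. Among all tested members 29.0% fell, and among all tested genes 27.5%; with 8 genes in runs that share their neighbourhood, no test was made. The runs that hold LOC_Os01g01840 with LOC_Os01g01870, and LOC_Os01g09930 with LOC_Os01g09990, had both of these members fall. LOC_Os01g09930 fell by 3.69 (SE 0.61, adjusted p = 0.00445) and LOC_Os01g09990 by 5.26 (SE 0.68, adjusted p = 0.00212) on the log2 scale. Both sizes rest on few drought reads. LOC_Os01g09930 had 0.14, 0.098 and 0.085 CPM in the mutant, overexpressor and ZH11 under drought, against 1.97, 0.99 and 1.61 CPM under normal growth. LOC_Os01g09990 had 0.14, 0.197 and 0.085 CPM under drought, against 18.17, 2.145 and 3.365 CPM under normal growth. Close copies can share reads, and how such reads were assigned is not stated beyond the steps of 0.5 in the read numbers.

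The make-up of the family by FPKM (a level that corrects for the length of a gene) narrowed under drought. OsbHLH148 made up 25.9% of the summed FPKM of the 145 members in the mutant, 7.69% in the overexpressor and 20.1% in ZH11 under drought, against 4.47%, 4.21% and 4.86% under normal growth. The 10 most abundant members held 73.0%, 66.3% and 72.0% under drought in these genotypes, against 51.3%, 52.1% and 47.8% under normal growth. In each genotype the drought library was the more concentrated one. OsPRI1 ranked second by FPKM in all 6 libraries. LOC_Os04g41570 led in the overexpressor under drought, with 15.4% of the summed FPKM, and LOC_Os10g40740 led in the overexpressor under normal growth, with 11.4%.

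**Figure D3:**
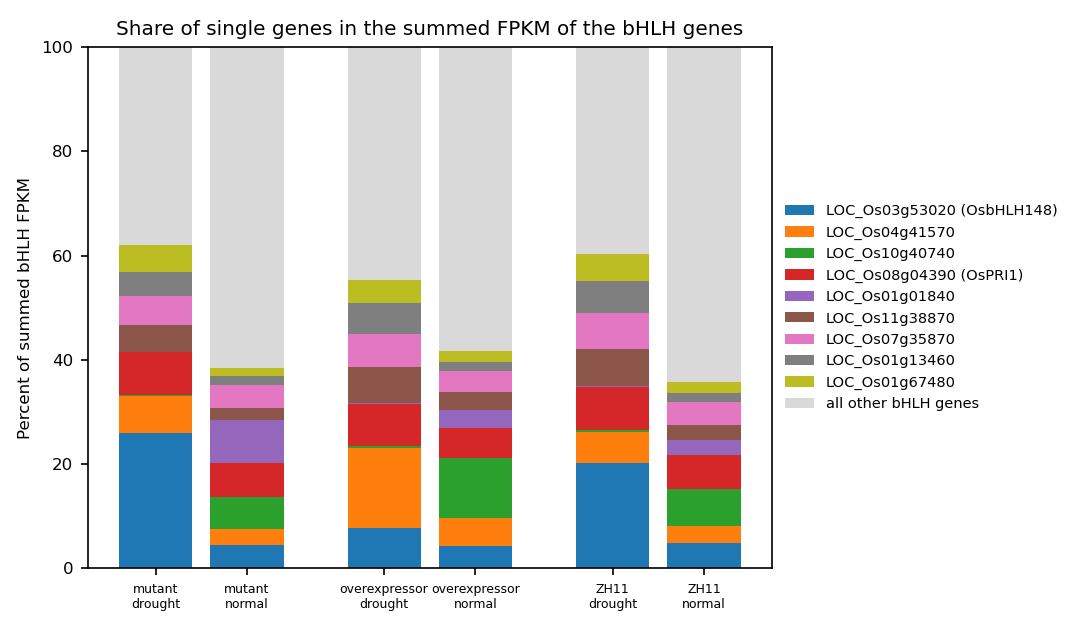
Percent of the summed FPKM of the 145 bHLH genes held by 9 genes, each with a large share in some library, and by all others; each bar is 1 library, drought to the left of normal growth within each genotype. OsbHLH148 (blue) takes 25.9% and 20.1% in the mutant and ZH11 under drought and 7.69% in the overexpressor, while LOC_Os10g40740 (green) is visible mainly under normal growth.

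Set against ZH11 over both conditions, no member passed in the mutant (0 of 69, against 0.014% of all tested genes) by edgeR's quasi-likelihood test. The smallest adjusted p was 0.501, and 5 of the 69 members had an unadjusted p under 0.05, as did 779 of all 21409 genes. By DESeq2, 1 member passed, with 81 of all 21409 genes (0.378%). It was LOC_Os01g11910, which was higher in the mutant in both conditions, with 69.6 CPM in the mutant against 19.1 CPM in ZH11 under drought, and 18.0 CPM in the mutant against 5.93 CPM in ZH11 under normal growth. The ratios were 3.64-fold (95% interval 3.11 to 4.29) and 3.04-fold (2.36 to 3.95). DESeq2 gave a log2 fold change of 1.77 with an adjusted p of 0.0223, and edgeR 1.74 ± 0.29 with an adjusted p of 0.501. Without an overexpressor library, edgeR's values for the gene were 1.72 and 1.74, with adjusted p of 0.0117 and 0.0403, in fits that called 185 and 70 genes in all.

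The overexpressor against ZH11 also gave 0 of 69 by edgeR's quasi-likelihood test, against 0.0187% of all tested genes. The smallest adjusted p was 0.942, and DESeq2 called 0 (0.294% of all genes). Only 1 of the 69 members had an unadjusted p under 0.05, against 1104 of all 21409 genes. That member was LOC_Os04g41570, with a log2 fold change of 0.87 ± 0.29. It stood 1.82-fold higher under drought (95% interval 1.68 to 1.97) and 1.83-fold higher under normal growth (1.62 to 2.06). Without the overexpressor's normal library the arm is its drought library alone, whose spread is taken from the other groups. That fit called 422 of all genes (1.89%), OsbHLH148 among them (-2.05, adjusted p = 0.0466).

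Contrasts of 1 library with 1 library have no test and are described over members with at least 10 reads in either library. Mutant against ZH11 under drought, 10 of 66 members were at least 2-fold higher (background 5.97% of genes) and 4 at least 2-fold lower (6.07%). Under normal growth, 8 of 76 were higher (3.42%) and 5 lower (4.03%). For the overexpressor against ZH11, 5 of 66 were higher under drought (11.0%) and 5 lower (8.52%). Under normal growth 0 of 72 were higher (2.36%) and 1 was lower (3.86%).

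OsbHLH120 led the mutant's drought contrast, at 6.63-fold of ZH11 (95% interval 4.79 to 9.32). Under normal growth it stood at 0.421 of ZH11 (0.213 to 0.798), so the order of the genotypes turned between conditions. LOC_Os01g50940 was 3.02-fold higher in the mutant under drought (2.01 to 4.61). At the low end LOC_Os04g35010 stood at 0.477 (0.386 to 0.586), with 16.8 CPM in the mutant and 35.1 CPM in ZH11.

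Under normal growth LOC_Os01g38610 was the member furthest down in the mutant. It had 9 reads in the mutant against 254 in ZH11, a ratio of 0.0328 (95% interval 0.0148 to 0.0633). Under drought it had 4 reads in the mutant, 46 in the overexpressor and 5 in ZH11. The drought ratio in ZH11 was 0.0229 (0.00739 to 0.0543), while the mutant was low in both conditions. The fitted drought change over all genotypes, -2.68 ± 0.93, missed the threshold in edgeR (adjusted p = 0.0510) and passed in DESeq2 (-2.38, adjusted p = 0.00713). It also passed with median-ratio size factors (-2.64), under total count scaling (-2.94), with no filter (-2.70) and in limma on log2(FPKM + 1) (-1.56). With no genotype term it did not pass in edgeR (-2.64, adjusted p = 0.114). Leaving out 1 library moved it both ways. Without either ZH11 library it was -1.24 or -1.25 and did not pass (adjusted p of 0.215 and 0.242), and without any of the other 4 libraries it lay between -3.97 and -3.14 and passed. LOC_Os01g09990 was 5.40-fold higher in the mutant than in ZH11 (3.94 to 7.55) and LOC_Os03g51910 3.74-fold higher (2.49 to 5.78) under normal growth.

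LOC_Os02g34370 had 60 reads in the overexpressor under drought, and its read numbers in the other 5 libraries were 0, or 0.5 in ZH11 under drought, rounded to 0. That is at least 23.9-fold higher than in the overexpressor under normal growth and at least 23.1-fold higher than in ZH11 under drought, against a floor of 3 reads. OsbHLH148 stood at 0.275 of ZH11 in the overexpressor under drought (95% interval 0.255 to 0.297), and LOC_Os06g41060 at 0.411 (0.318 to 0.528). LOC_Os01g43680 was higher, at 2.62-fold (2.01 to 3.44), with 18.3 CPM in the overexpressor and 6.99 CPM in ZH11. Under normal growth LOC_Os10g40740 was 1.79-fold higher in the overexpressor (1.68 to 1.91) and LOC_Os01g39330 lower, at 0.483 (0.379 to 0.612).

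Within single genotypes, 24 members were at least 2-fold higher and 23 at least 2-fold lower under drought in the mutant, of 73 with enough reads (background 26.5% and 32.7% of genes). The overexpressor gave 16 higher and 26 lower of 72 (20.1% and 20.6%), and ZH11 25 higher and 28 lower of 76 (25.0% and 29.5%). Among the 42 members changed by drought, the drought ratio was smaller in size in the overexpressor than in ZH11 for 36, or 85.7%, against 81.5% of all changed genes. The members shared this with the transcriptome. For the mutant it was 23 of 42, or 54.8%, against 44.8% of all changed genes. Each drought ratio in these comparisons has its own normal library, and no test of the difference between genotypes was possible with 1 library a group.

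**Figure D4:**
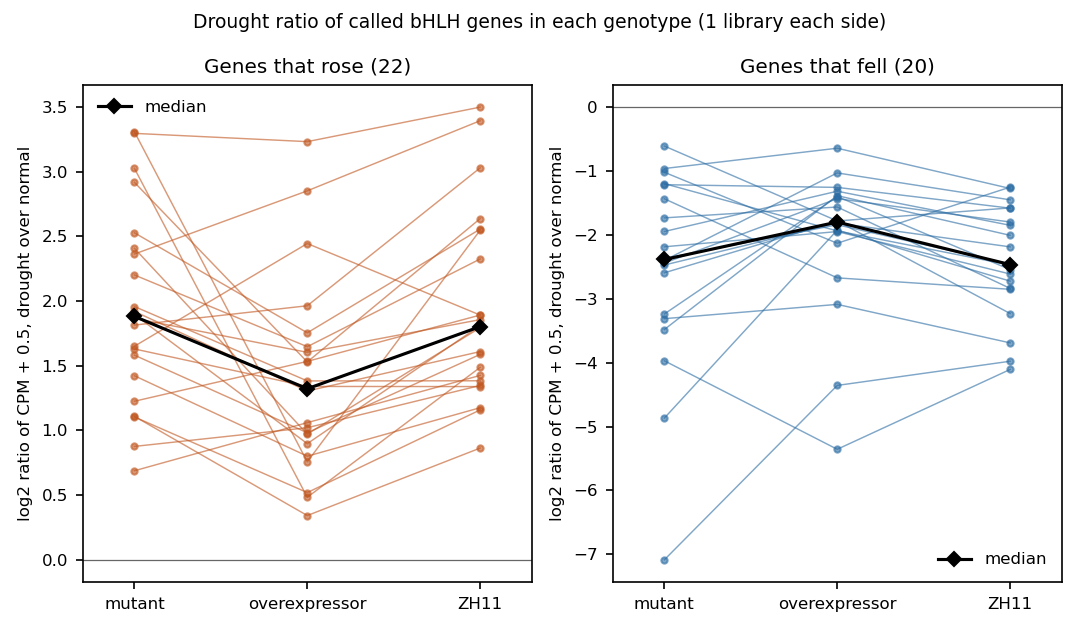
Log2 ratio of CPM plus 0.5, drought over normal growth, in the mutant, the overexpressor and ZH11 for the 22 bHLH genes that rose (left) and the 20 that fell (right); each line is 1 gene and black diamonds are medians. The medians of the genes that rose are 1.88 in the mutant, 1.32 in the overexpressor and 1.80 in ZH11, and those of the genes that fell are -2.38, -1.80 and -2.46. For all changed genes, not drawn, they are 1.98, 1.39 and 1.86 for rises and -1.94, -1.31 and -1.87 for falls.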

How the data were processed

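RNA was read from the 6 deposited tables, which give expected counts per gene (read numbers in steps of 0.5) and FPKM, per the file headers. Per the submitters' processing notes, the tools were edgeR 3.6.0, TopHat2 2.0.8 and, for trimming, Trimmomatic 0.32; their settings and the genome build are not given in the sources used here. The 3 ChIP-seq peak lists were not used here.

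The 56001 lines gave 55986 genes after 15 repeated names were summed, and read numbers were rounded. Genes were filtered by filterByExpr on condition, scaled by TMM (factors 0.754 to 1.21) and fitted in edgeR 4.0.16 (R 4.3.3) by quasi-likelihood with additive genotype and condition terms, leaving 2 residual degrees of freedom. P-values are 2-sided, adjusted by Benjamini-Hochberg, with a threshold of 0.05. SE is the log2 fold change over the square root of F. Contrasts of single libraries are log2 ratios of CPM plus 0.5. Their 95% Clopper-Pearson intervals and the floor of 3 reads cover counting error only, since reads are not independent molecules. The deposited FPKM served to compare levels between genes and as an alternative.

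Members and lists were chosen with earlier results of these data known. Symbols of loci come from general knowledge of rice genes. Named are, for drought, up to 12 changed members each way with a mean of at least 5 CPM and 1 direction in all genotypes, up to 3 each way per single-library contrast with at least 50 reads, and members in a role list; other alternatives were DESeq2 1.42.0, limma 3.58.1, other scalings and filters, and leaving out each library.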

Additional observations from a re-analysis of the deposited data

Results flagged for a closer look

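Of the 69 tested members, 11 had single-library drought ratios on both sides of 0 across the 3 genotypes. Only 2 of them had a ratio above 0 in 1 genotype and a ratio below 0 in another whose 95% counting intervals both left out equality, and these 2 are given here. The difference between genotypes was not tested, as each group had 1 library. LOC_Os03g27390 had a drought log2 ratio of 0.56 in the mutant, -0.75 in the overexpressor and 0.23 in ZH11. OsMYC2 (LOC_Os10g42430) had 0.14 in the mutant, -1.1 in the overexpressor and -0.23 in ZH11. Neither gene passed the drought test over all genotypes. The signs also depend on the scaling. TMM factors were 0.754 and 1.21 in the mutant's drought and normal libraries, 1.01 and 1.12 in the overexpressor's, and 0.867 and 1.12 in ZH11's. Scaling to total counts would therefore lower each drought ratio, most in the mutant. The ratios of these 2 genes under that scaling are not given here.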

How the results depend on the processing

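The alternatives gave 494 results for 39 named genes, in which both nearly equal fits without a library of the same genotype are counted. Of these results, 429 kept their direction and side of the threshold, 30 lost a call, 32 gained one and 3 reversed. Of 30 named changed members, 18 passed under every alternative that fitted them. The 3 reversed results had not passed: OsPRI3 at -0.039 under total count scaling and -0.042 in limma on log2(FPKM + 1), and OsMYC2 at 0.0046 without the overexpressor drought library (-0.68 to 0.0046 over all libraries left out in turn). With at least 10 CPM in 3 libraries, 23 of 33 tested members changed (12 rose, 11 fell), where 62.0% of all genes did. The member median was then -0.15. It was -0.14 with no filter and -0.77 under total count scaling. Leaving out each library gave 21 to 48 changed members (9 to 25 rose, 12 to 23 fell) of 69 to 73 tested. In these fits 22.3% to 61.3% of all genes changed, and the member median was -0.27 to -0.040. For mutant against ZH11, DESeq2 called 1 member (81 of all genes), no filter 2 (184), and leaving out a library 0 to 1 (0 to 185). For overexpressor against ZH11, no filter called 1 (LOC_Os02g34370; 158 of all genes) and leaving out a library 0 to 1 (0 to 422). A pseudocount of 2 CPM left 5 of 14 members at least 2-fold apart for mutant against ZH11 under drought, 6 of 13 under normal growth, and 0 of 1 for the overexpressor under normal growth. No pairing beyond that by genotype was possible because the groups have no replicate numbers to block on. The genotype term already sets each drought library against the normal library of its genotype. Without that term 44 members changed, where 53.2% of all genes did. The alternative promoter window was not run. The cause of these moves was not tested. Genes with few reads and differences between genotypes are limited by the single library a group.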
